A study of Homo sapiens with 4 samples.

Results

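The WAVE regulatory complex is a protein assembly that switches on branched actin growth at the cell edge. The 9 genes described here encode its subunits, namely the WASF paralogs WASF1, WASF2 and WASF3, the CYFIP paralogs CYFIP1 and CYFIP2, NCKAP1, the ABI paralogs ABI1 and ABI2, and BRK1. They were matched by GENCODE symbol to 9 of the 64252 genes in the count table, and all 9 passed the filter on low counts, which left 18779 genes for testing. The complex was selected on the differences between these same libraries, so the knockdown values of the 9 genes are given as a description and no test of them is drawn on.

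The data came from SK-N-BE(2), a human neuroblastoma cell line with MYCN amplification. The control group carried a scrambled shRNA (sh-Scb, 2 libraries) and the knockdown group carried an shRNA against SAPCD2 (sh-SAPCD2, 2 libraries). The comparison gives the transcripts that differ between these groups in 1 cell line. The labels do not separate libraries by hairpin, so loss of SAPCD2 and other effects of the shRNA cannot be told apart. Per the study's methods the shRNAs were delivered by lentivirus and the cells were kept under puromycin selection to give stable lines, a treatment that both groups share, whereas the labels speak of transfection. Total RNA was sequenced in bulk, and nothing in the labels says that the libraries of a group came from separate cultures, so the p-values measure only the spread between these libraries, which may be technical.

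In the complex, a WASF protein carries the segment that binds and activates the Arp2/3 complex, the machine that starts a new actin filament on the side of an old one. The other subunits hold WASF inactive until the GTPase Rac binds a CYFIP subunit at the membrane, and NCKAP1, ABI and BRK1 build the scaffold around it. In neuronal cells this pathway drives lamellipodia, growth cone advance and axon and dendrite growth.

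After SAPCD2-knockdown the transcripts of WASF1 and WASF2 fell to 29.2% and 24.1% of the control mean, and ABI2 fell to 70.3%. WASF3, CYFIP1, NCKAP1, ABI1 and BRK1 stayed between 96.8% and 104% of the control mean, and their groups overlapped. CYFIP2 stood at 79.3% and was not called. Since RNA was measured in bulk, fewer cells that express a gene and less of its RNA per cell cannot be told apart.

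The sequences of the knockdown hairpin and of the letters that match its seed are shown first, because 4 of the 9 members hold such a match. The study lists more than 1 hairpin; the labels of these libraries do not say which was used, and the study's own display of these libraries names sh-SAPCD2 #1. Capitals mark guide bases 2 to 8, the seed, or the letters complementary to them, and each line runs 5′ to 3′. The member lines give 21 bases of the 3′ UTR of the GENCODE 44 canonical transcript, aligned with the sense arm.
sh-SAPCD2 #1 guide arm: aTGAAGGTggaatccagaggt
sh-SAPCD2 #1 sense arm: acctctggattccACCTTCAt
WASF2 site 1: accacctctagatACCTTCAg
WASF2 site 2: cggtgctgctcagACCTTCAt
CYFIP2 site 1: ttagggaatcagaACCTTCAt
CYFIP2 site 2: gccgagtcacattACCTTCAg
CYFIP1 site 1: ttggagtattgcaACCTTCAc
NCKAP1 site 1: attctgaattcttACCTTCAg

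The 2 WASF2 matches lie on the minus strand of hg38 at chr1:27407467-27407473 and chr1:27407065-27407071, at bases 716 and 1118 of a 3′ UTR of 3959 bases. Each shares 11 of 21 letters with the sense arm. In this count and those below, 7 of the shared letters are ACCTTCA itself, by which the sites were found. The CYFIP2 matches lie on the plus strand at chr5:157394067-157394073 and chr5:157395132-157395138, and share 8 and 10 letters. The CYFIP1 match is at chr15:22868799-22868805 and the NCKAP1 match at chr2:182919285-182919291, both on the minus strand, with 9 shared letters each.

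WASF1, WASF3, ABI1, ABI2 and BRK1 hold no ACCTTCA in the 3′ UTR. The letters therefore occur in 1 of the 3 members that fell, WASF2, and in 3 of the 6 that were not called. Over the 13583 tested protein-coding genes with an annotated 3′ UTR, 12.5% held at least 1 match and 1.90% held 2 or more. The share was 14.9% among genes called lower, 12.4% among genes called higher and 12.1% among genes not called. The median log2 fold change was 0.05 over genes without a match, -0.03 over those with 1 match and -0.17 over those with 2 or more, and the median 3′ UTR length of these groups was 1165, 2850 and 5152 bases in that order. A further 4 heptamers (the letters TCCACCT with AGAGGTC and the letters CCACCTA with GAGGTCA) had been picked with the calls of these libraries in view, so their shares support nothing. At least 1 of them was present in 47.0% of the genes called lower, 27.2% of those called higher and 32.8% of those not called, whose median 3′ UTR lengths were 1579, 1356 and 1302 bases. WASF1, WASF2, WASF3 and ABI1 held none of these letters, ABI2 and CYFIP1 held 1, CYFIP2 and BRK1 held 2 and NCKAP1 held 5. A match in letters is a description only, and its part in any member's level was not tested.

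The 4 libraries held between 25347900 and 31850997 counts, and 3 counts corresponded to 0.0955 to 0.119 CPM (each count divided by its library's TMM-scaled total, on the usual CPM scale). SAPCD2, the targeted gene, was at 83.6 and 82.2 CPM in the sh-Scb libraries and at 35.4 and 52.5 CPM in the sh-SAPCD2 libraries. The knockdown thus left 42.7% and 63.3% of the control mean, a log2 fold change of -0.91 with an SE of 0.193 (adjusted p = 0.0206, edgeR's quasi-likelihood test). Of the defining neuroblastoma markers, HAND2 was at 534.5 to 709 CPM and GATA3 at 199 to 226 CPM over the libraries, while of 8 leukocyte markers CD3E and ITGAM were at 0. Of the 4 leukocyte markers tested, CD68 and CD14 were called higher, from at most 0.0727 and 0.582 CPM to at most 0.435 and 1.54 CPM, and PTPRC at 8.94 to 12.4 CPM and LCP1 at 6.85 to 9.09 CPM were not called; the summed level of the list was 18.2 to 18.5 CPM in sh-Scb and 19.4 to 23.6 CPM in sh-SAPCD2. Markers moved along with the groups. MYCN was at 3235 and 3178 CPM in sh-Scb and at 5904 and 7091 CPM in sh-SAPCD2, and it was called higher. Of 8 mesenchymal markers, 7 were tested and 3 fell, PRRX1 was at 0, and their summed level went from 1480 to 1500 CPM down to 753 to 761 CPM, mostly through VIM. The part of these shifts in the WASF1 and WASF2 levels was not tested.

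WASF1, the paralog best known from brain, lies on chromosome 6 from 110099819 to 110180004, minus strand, with 11 exons in its canonical transcript (ENSG00000112290; hg38, GENCODE 44). It was at 111 and 109.7 CPM in the control libraries and at 34.1 and 30.5 CPM in the knockdown libraries, from 3068, 3018, 862 and 958 counts. Both knockdown libraries lay far below both controls, and the libraries of each group lay close together. Its log2 fold change was -1.77 (SE 0.116, 95% interval -2.06 to -1.49).

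WASF2, the paralog expressed in most tissues, lies on chromosome 1 from 27404230 to 27490167, minus strand, with 9 exons (ENSG00000158195). Its level was 161 and 155 CPM in sh-Scb and 40.1 and 35.7 CPM in sh-SAPCD2, from 4437, 4256, 1016 and 1122 counts. The groups were again widely apart, and this was the largest change among the 9 members. WASF2 thus had a log2 fold change of -2.06 (SE 0.114, 95% interval -2.33 to -1.78). Of all genes tested, 1.12% had a lower log2 fold change than WASF2 and 1.90% a lower one than WASF1. SAPCD2 itself was reduced less, in relative terms, than either.

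WASF3, the third activator, lies on chromosome 13 from 26557683 to 26688948, plus strand, with 10 exons (ENSG00000132970). It stood at 38.5 and 39.3 CPM in the control libraries and 43.5 and 37.3 CPM in the knockdown libraries. One knockdown library was above and the other below both controls. WASF3 had a log2 fold change of 0.05 (SE 0.132, 95% interval -0.27 to 0.37).

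**Figure D1:**
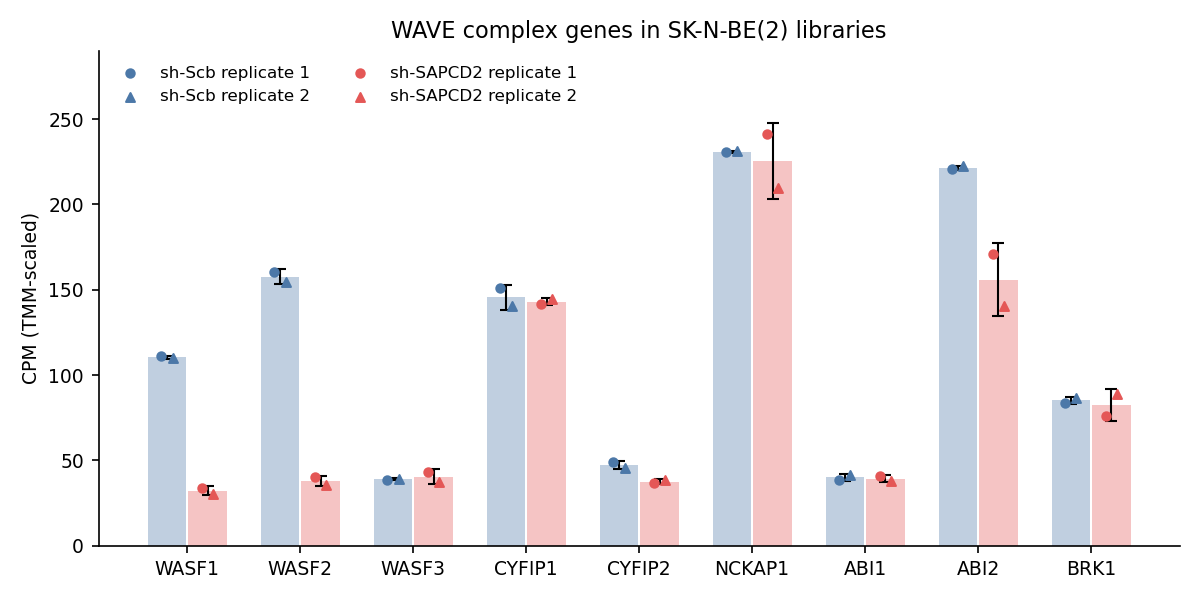
Level of each of the 9 WAVE complex genes in CPM (linear vertical axis), with 1 point per library, a bar at the mean of each group of 2 and an error bar of 1 SD. WASF1 and WASF2 separate widely (means of 110.4 against 32.3 CPM and 158 against 37.9 CPM), ABI2 and CYFIP2 separate by less, and the points of the other 5 genes intermix.

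CYFIP1 encodes the Rac-binding subunit found in most cells and lies on chromosome 15 from 22867052 to 22981063, minus strand (ENSG00000273749). The control libraries held 151 and 140.4 CPM and the knockdown libraries 141 and 144.5 CPM, so the knockdown values fell inside the control range. The log2 fold change was -0.03 (SE 0.0986, 95% interval -0.27 to 0.21).

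CYFIP2, the Rac-binding paralog that is abundant in neurons, lies on chromosome 5 from 157266079 to 157395595, plus strand (ENSG00000055163). Its values were 49.1 and 45.7 CPM in sh-Scb against 36.6 and 38.6 CPM in sh-SAPCD2. Both knockdown libraries were below both controls, but the gene was not called. On the log2 scale the fold change was -0.34 (SE 0.12, 95% interval -0.63 to -0.04). It was -0.30 without sh-SAPCD2 replicate 1 and -0.37 without replicate 2. Without sh-Scb replicate 1 it was -0.28, and without sh-Scb replicate 2 it was -0.39.

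NCKAP1, the large scaffold that pairs with CYFIP, lies on chromosome 2 from 182909115 to 183038858, minus strand (ENSG00000061676). It held 230.5 and 231 CPM in the control libraries and 241 and 209.7 CPM in the knockdown libraries, which lay on either side of the controls. The log2 fold change was -0.03 (SE 0.108, 95% interval -0.30 to 0.23). It was -0.14 without sh-SAPCD2 replicate 1 and 0.07 without replicate 2, so its sign depended on the library left out.

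ABI1, an adaptor that ties WASF to the scaffold and to Abl kinases, lies on chromosome 10 from 26746593 to 26861087, minus strand (ENSG00000136754). Its 4 libraries were at 38.7, 41.5, 40.7 and 37.9 CPM, controls first, and the groups overlapped, with a log2 fold change of -0.03 (SE 0.123, 95% interval -0.33 to 0.27).

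ABI2, the second adaptor of this kind, lies on chromosome 2 from 203328280 to 203447728, plus strand (ENSG00000138443). It was at 221 and 222 CPM in sh-Scb and at 171 and 140.6 CPM in sh-SAPCD2. Both knockdown libraries were lower, and they stood further apart from each other than the controls did. The log2 fold change was -0.51 (SE 0.123, 95% interval -0.81 to -0.21), and it was -0.66 without sh-SAPCD2 replicate 1 and -0.37 without replicate 2. The call was lost without sh-Scb replicate 1 (-0.51) and without sh-Scb replicate 2 (-0.50).

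BRK1, the smallest subunit, with 225 coding bases, lies on chromosome 3 from 10115675 to 10127190, plus strand (ENSG00000254999). Its libraries held 83.7 and 86.7 CPM in the control group and 75.9 and 89.1 CPM in the knockdown group. One knockdown library was below and the other above both controls, and the log2 fold change was -0.05 (SE 0.12, 95% interval -0.34 to 0.25).

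In all, 3 of the 9 members were called lower at an adjusted p under 0.05 and 0 were called higher by edgeR's quasi-likelihood test, against 12.5% and 12.4% of all genes tested. No member was higher at an unadjusted p under 0.05 and DESeq2 called 0 higher as well. With a log2 fold change beyond 1 also required, WASF1 and WASF2 remained, against 5.15% of genes lower and 4.69% higher over the whole table. Both knockdown libraries were below both controls for 4 members (background 33.4%) and above them for 0 (background 33.5%), and 5 members overlapped. Nothing is read from these counts, since the complex was selected on this contrast. The median log2 fold change was -0.05 over the members and 0.02 over all genes tested.

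Some members share their locus with other genes, and whether counting used strand is not given in the sources used here. ABI2 overlaps RAPH1 on the opposite strand, ABI1 overlaps PDSS1, CYFIP1 overlaps NIPA2, and CYFIP2 overlaps ADAM19 and FNDC9. RAPH1 held 260 to 401 counts and PDSS1 200 to 369 counts per library, and NIPA2 held 2132 to 2940. WASF1 and BRK1 overlap no annotated gene, and WASF2 overlaps only a long noncoding RNA with 0 counts in every library. The processed pseudogenes WASF1P1, NCKAP1P1, BRK1P1 and BRK1P2 were at 0 in every library and ABI1P1 held 2 to 4 counts.

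Levels of different genes can be set side by side only per length, and here TPM was used, computed from the counts and the length of the canonical transcript. In the control cells the order by mean TPM was BRK1 (153 ± 3.08, SD, n = 2), WASF1 (78.8 ± 1.06), ABI2 (69.5 ± 0.0511), WASF2 (57.2 ± 1.79), CYFIP1 (43.9 ± 2.41), ABI1 (23.5 ± 1.05), NCKAP1 (23.4 ± 0.0579), WASF3 (16.5 ± 0.155) and CYFIP2 (15.1 ± 0.83). ABI1 and NCKAP1 differed by less than the SD of ABI1, and the other neighbours were further apart than either SD. The SDs do not cover the choice of length, on which this order depends. ABI2 has 6567 bases in its canonical transcript and 23275 over all its exons. In the knockdown cells WASF1 dropped from the 2nd to a shared place with ABI1 and NCKAP1, all 3 at 22.4 to 22.6 TPM, and WASF2 dropped to 13.5 ± 1.67 TPM, between WASF3 at 16.8 ± 2.51 and CYFIP2 at 11.7 ± 0.0558.

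The make-up of the WASF transcripts shifted with the loss of WASF1 and WASF2. Of the 3 paralogs' summed level per length, WASF1 made up 51.5% and 51.8% in the control libraries and 42.4% and 43.1% in the knockdown libraries. WASF2 went from 37.9% and 37.1% to 25.4% and 25.6%. WASF3, whose own level did not separate, went from 10.6% and 11.0% to 32.2% and 31.3%. With 2 libraries against 2 an exact permutation test cannot reach 0.05, and no test was run.

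The CYFIP pair shifted by less. CYFIP1 took 74.4% in both control libraries and 78.5% and 78% in the knockdown libraries, with CYFIP2 taking the remainder. ABI2 made up 75.3% and 74.1% of the ABI level in sh-Scb and 69.2% and 66.5% in sh-SAPCD2. The ABI shares depend on the length used, because the ABI2 exons together span 23275 bases and its canonical transcript 6567. With the length of all exons ABI2 made up 50.8% and 49.2% in the control libraries and 43.2% and 40.2% in the knockdown libraries, and the WASF3 share was 10.7% and 11.1% against 32.4% and 31.5%.

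**Figure D2:**
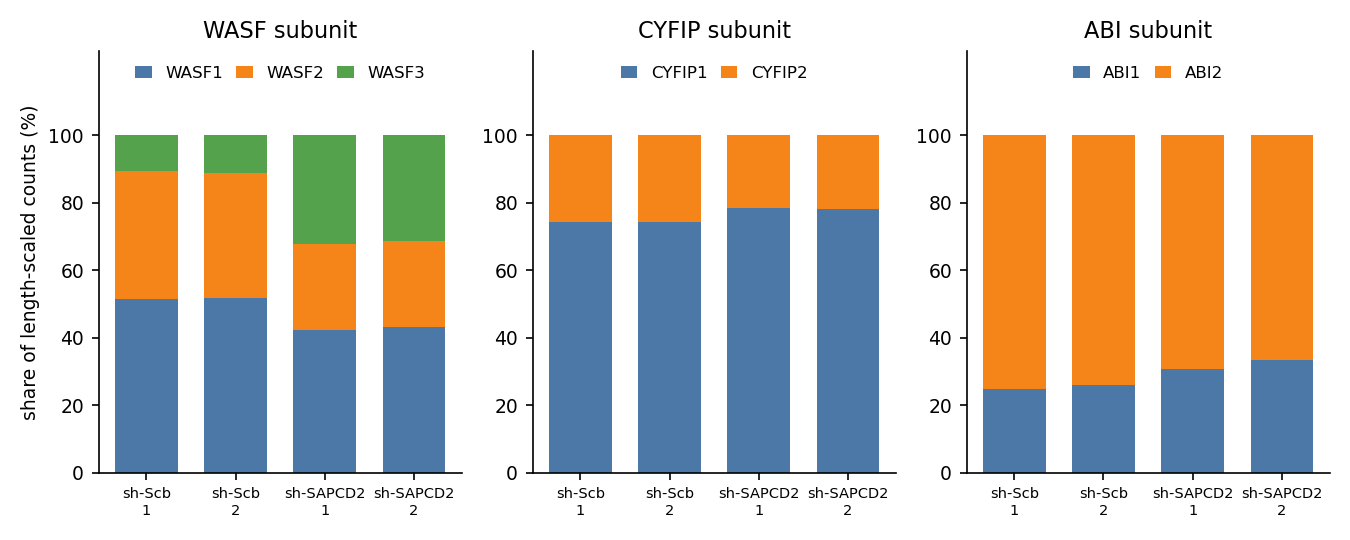
Share of each paralog (percent of its subunit's summed level per length, vertical axis) in each of the 4 libraries (1 stacked bar each), for WASF, CYFIP and ABI. The WASF3 segment grows from 10.6% and 11.0% in the control libraries to 32.2% and 31.3% in the knockdown libraries, while the CYFIP and ABI segments move by less.

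Summed over paralogs, the WASF transcripts fell out of proportion to the rest of the complex. The WASF sum was 154 and 151 TPM in sh-Scb and 57.7 and 48.0 TPM in sh-SAPCD2, or 34.7% of the control mean. The ABI sum was at 75.9%, CYFIP at 91.3%, BRK1 at 94.5% and NCKAP1 at 95.8%. Per BRK1 transcript there were 1.03 and 0.972 WASF transcripts in the control libraries and 0.421 and 0.317 in the knockdown libraries. Against NCKAP1 the ratio went from 6.59 and 6.45 to 2.34 and 2.38, and against CYFIP from 2.52 and 2.65 to 1.05 and 0.904. These are ratios of transcripts and say nothing of protein. Their size depends on the length taken for each gene, and NCKAP1 was divided by 20332 bases, of which 16587 are 3′ UTR.

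**Figure D3:**
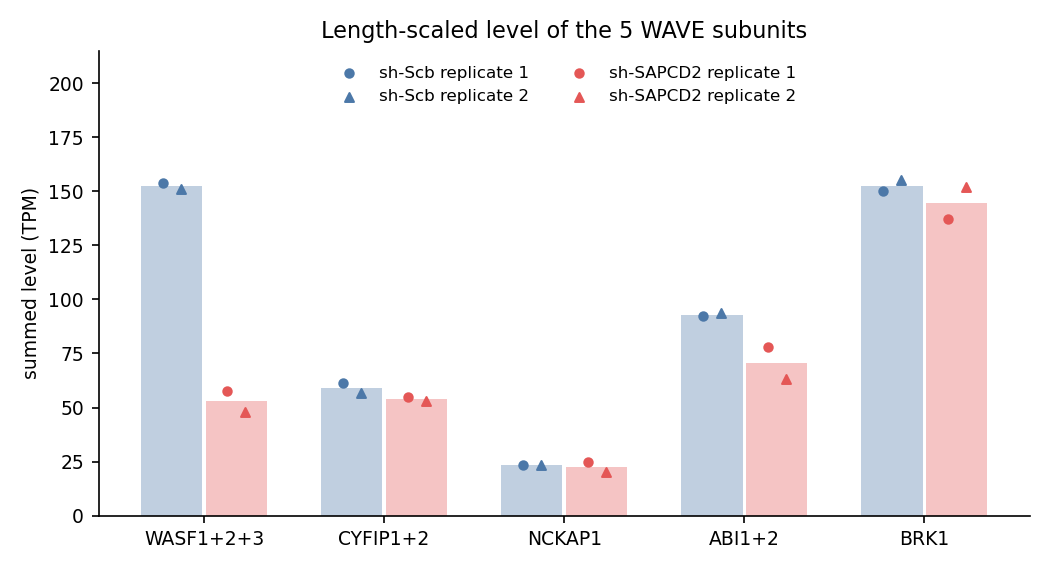
Summed level of each WAVE subunit (TPM, vertical axis), with paralogs added together, 1 point per library and a bar at the mean of each group. WASF falls from 154 and 151 TPM to 57.7 and 48.0 TPM, whereas CYFIP, NCKAP1 and BRK1 stay near their control values.

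The relatives of NCKAP1 and ABI that belong to blood cells gave almost no signal. NCKAP1L was at 0 and 0.182 CPM in the control libraries and at 0 in both knockdown libraries. ABI3 was at 0.398, 0, 0.277 and 0.446 CPM, controls first. In no library did NCKAP1L exceed 5 counts or ABI3 14 counts.

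As the study turned to E2F factors, the promoters of the members were searched for the E2F-type letters TTTCCCGC, TTTGGCGC, TTTCGCGC and TTTGCCGC on both strands, in RefSeq windows from 250 bases before to 50 after the start (GRCh38.p14). Windows were given for 8 of the 9 members, 13 windows in all. None was given for WASF2, the member that fell furthest, so its promoter was not searched. Only CYFIP2 held a match, TTTCCCGC, shown in capitals, and its other window, chr5:157269074-157269373, held none. Over 35116 promoter windows, counted per window and not per gene, 3.31% held any of the 4 motifs and 1.63% held TTTCCCGC. The WASF1 window, which holds none, is printed beside it because WASF1 fell much further than CYFIP2. The window reaches only to 110179920, inside the gene, whose GENCODE start on the minus strand is 110180004. Bases before that start were not searched.
CYFIP2 promoter, chr5:157265873-157266172, plus strand: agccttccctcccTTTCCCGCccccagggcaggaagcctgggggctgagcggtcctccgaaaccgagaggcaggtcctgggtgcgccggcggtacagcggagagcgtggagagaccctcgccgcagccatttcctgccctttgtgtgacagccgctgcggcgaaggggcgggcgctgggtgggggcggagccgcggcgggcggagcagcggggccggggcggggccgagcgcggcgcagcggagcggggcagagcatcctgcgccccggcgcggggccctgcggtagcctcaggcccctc
WASF1 promoter, chr6:110179621-110179920, minus strand: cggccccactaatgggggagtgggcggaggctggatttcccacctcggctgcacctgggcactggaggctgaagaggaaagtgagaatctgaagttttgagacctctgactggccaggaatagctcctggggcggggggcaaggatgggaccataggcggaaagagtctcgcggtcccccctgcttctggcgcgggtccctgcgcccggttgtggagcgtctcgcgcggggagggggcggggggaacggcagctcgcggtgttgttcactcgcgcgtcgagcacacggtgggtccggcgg

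Around the complex, 155 further genes of the pathway were followed in 9 lists, of which 144 were tested. Of these, 26 rose (18.1%, against 12.4% of all genes) and 19 fell (13.2%, against 12.5%), with a median log2 fold change of 0.04. The shares of 12.4% and 12.5% over all genes stand as background to each list below, and nothing is read from the list counts. When either sh-Scb library was left out only 7 were called in each direction, and when either sh-SAPCD2 library was left out 45 were called higher and 34 to 39 lower. Below, a level given as going from one CPM value to another is the mean of the 2 libraries of each group, and over the genes named the SE of the log2 fold change ran from 0.0905 for ACTB to 0.407 for PCDH19. Each gene said to have risen or fallen had an adjusted p under 0.05, the highest being 0.0477 for PCDH19. None of the pathway genes named in the following paragraphs fell as far as WASF2 except ARHGAP30, a gene at low level.

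Upstream of WAVE, the list of direct partners and regulators had 4 genes higher and 3 lower of 29 tested, with a median of -0.03. RAC1, the GTPase that switches the complex on, was at 278 and 285.5 CPM in sh-Scb and 257 and 271 CPM in sh-SAPCD2, a log2 fold change of -0.09 (SE 0.0937) that was not called. RAC2 rose from 3.39 to 6.23 CPM. HACE1, the ubiquitin ligase that targets active Rac1, fell by 1.18 on the log2 scale (SE 0.128, adjusted p = 0.00377). NHS, which carries a WAVE homology domain, fell by 0.91, and ABL1, a kinase that binds ABI, fell by 0.35. The adaptor NCK2 rose by 0.82 (SE 0.129, adjusted p = 0.00902) and SH3BP1, a GTPase activating protein for Rac, by 0.73. PCDH19, a protocadherin, was called higher at 0.652 and 1.05 CPM against 2.88 and 1.78 CPM and was named outside the rule, after its value was seen.

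Rac is loaded by guanine nucleotide exchange factors. In the list of these factors and their ELMO partners, 7 of 23 tested rose (30.4%, against 12.4% of all genes). Another 4 fell (17.4%, against 12.5%), and the median was -0.03. The partner ELMO1 is among those that rose. TIAM1 rose from 80.8 to 144 CPM (log2 fold change 0.83, adjusted p = 0.00579), DOCK4 from 62.9 to 118 CPM and PREX1 from 11.5 to 20.7 CPM. DOCK1 fell from 79.1 to 49.3 CPM (log2 fold change -0.68, adjusted p = 0.0120), SOS2 from 49.0 to 27.8 CPM and DOCK5 from 39.4 to 26.2 CPM. Among the GTPase activating proteins that turn Rac off, 1 of 16 rose and 2 fell. SRGAP1 rose by 0.70, RACGAP1, which also serves in cytokinesis, fell by 0.86, and ARHGAP30 fell from 2.81 to 0.591 CPM.

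Downstream, 0 of the 10 Arp2/3 subunit genes were called lower by edgeR and 2 rose, against 12.5% and 12.4% of all genes. With 10 genes, nothing is read from these counts. At an unadjusted p under 0.05, 2 were lower by edgeR. DESeq2 called 1 lower, and 2185 of all 34935 genes it tested. ARPC1A rose by 0.63 (SE 0.105, adjusted p = 0.0107, edgeR) and ACTR3B by 0.48 (SE 0.133, adjusted p = 0.0464). The median of that list was 0.13. Of 9 tested inhibitors and branch factors, 3 rose and 1 fell. The coronins CORO2B, CORO1C and CORO1B rose by 1.40, 0.46 and 0.61, and ARPIN, an inhibitor of Arp2/3, fell by 0.51.

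The list of other activators of Arp2/3, with their partners and complex subunits, had 1 gene higher and 4 lower of 12 tested. That is 8.33% and 33.3%, against 12.4% and 12.5% of all genes. WIPF1 and WIPF2, which bind and stabilise N-WASP and WASP, fell to 43.1% and 40.8% of the control mean, with log2 fold changes of -1.21 (SE 0.099, adjusted p = 0.00243) and -1.29 (SE 0.124, adjusted p = 0.00313). WASHC3, a subunit of the endosomal WASH complex, fell by 0.69, and JMY rose by 0.61. WASL, the gene for N-WASP, fell by 0.51 and was named outside the rule, after its value was seen.

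Unbranched filament growth depends on formins and Ena/VASP proteins, of which 4 rose and 3 fell of 16 tested. DIAPH1, a formin, fell from 199 to 79.4 CPM (log2 fold change -1.33, SE 0.0968, adjusted p = 0.00201), DIAPH3 fell by 0.80 and FMNL2 by 0.73. VASP rose by 1.10, FMNL1 by 1.00 and DAAM1 by 0.84. Of 28 genes for actin monomers, capping and turnover, 4 rose and 2 fell, with a median of 0.22. The monomer-binding TWF1 rose by 1.01, the cofilin phosphatase SSH2 by 0.63 and CARMIL3, a regulator of capping protein, by 0.47. PFN2, a profilin, fell by 0.40 and beta-actin itself, ACTB, by 0.38, a gene with many near-identical copies whose reads the counting could split.

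**Figure D4:**
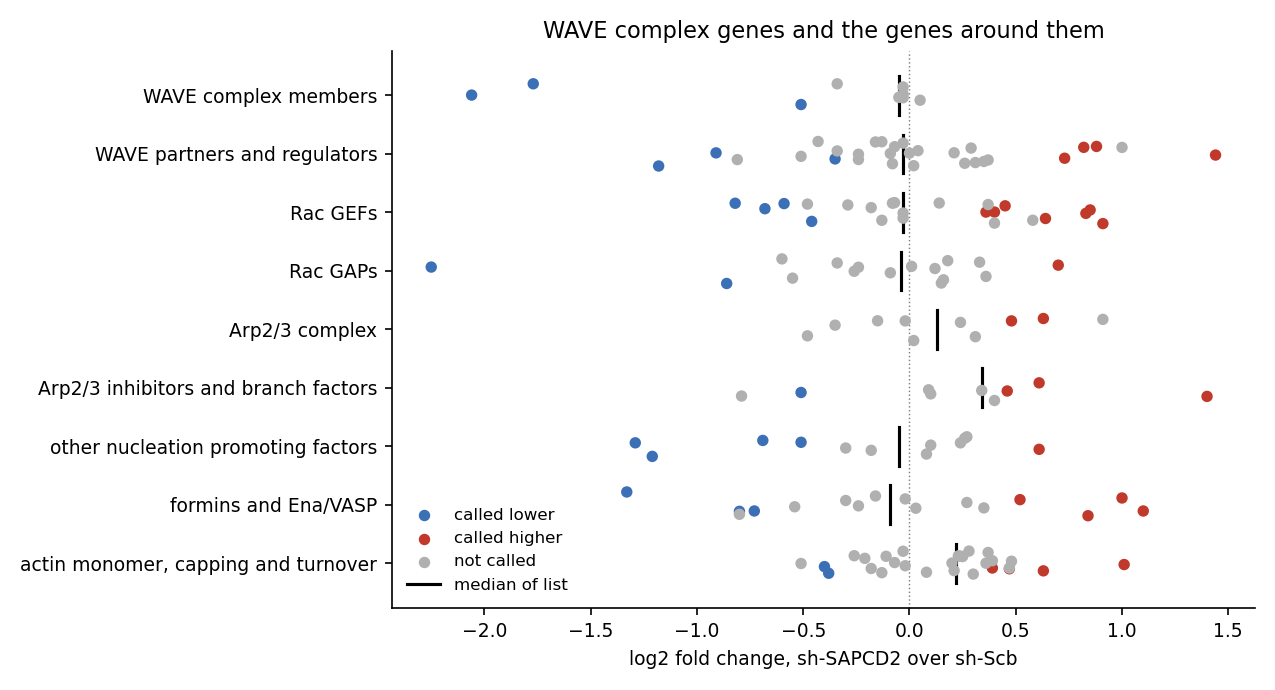
Log2 fold change, sh-SAPCD2 over sh-Scb, of each tested gene in the WAVE complex and in 8 of the 9 pathway lists (rows, without the list of NCKAP1L and ABI3; points are spread vertically for visibility), with the median of each list as a bar. WASF2 at -2.06 and WASF1 at -1.77 stand at the far left of the top row, and the medians of the lists drawn lie between -0.09 and 0.34.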

How the data were processed

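The table that the authors deposited holds whole-number read counts per Ensembl gene for 4 libraries. Per the submitters' processing notes, reads were aligned to hg38 with HISAT2 2.2.0, and per the study's methods they were paired-end and passed through StringTie. The counting step, its use of strand and its treatment of reads with several matches are not given in the sources used here. The counts were fitted with edgeR 4.0.16 (R 4.3.3; TMM scaling, low-count genes removed by filterByExpr at its settings of 10 counts and a total of 15, quasi-likelihood test, Benjamini-Hochberg adjustment over all 18779 genes tested). DESeq2 1.42.0 was an alternative. A gene was called at an adjusted p under 0.05, and the stricter call also required an absolute log2 fold change over 1. The members and lists were chosen with earlier results of these data known. Named were the 9 members, SAPCD2, the relatives NCKAP1L and ABI3, and from each pathway list up to 3 called genes with the smallest p in each direction. RAC1, PCDH19, ELMO1, WASL and the markers were added after their values were seen. Symbols, coordinates and lengths came from GENCODE 44, which held 17467 of the genes tested. Promoters came from RefSeq. The steps were tested on simulated data. Intervals are at the 95% level and cover the spread between libraries. Alternatives were other scalings, filters, gene sets, a replicate block, a GC and length correction and leaving out each library. The adrenergic marker list is not reported as a whole here.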

Additional observations from a re-analysis of the deposited data

How the results depend on the processing

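WASF1 and WASF2 were called lower under all 13 alternatives, at log2 fold changes from -1.86 to -1.67 and from -2.15 to -1.97. WASF3, CYFIP1, ABI1 and BRK1 were called under none of them. ABI2 lost its call in 3, without a filter on low counts (adjusted p = 0.0861, edgeR) and without sh-Scb replicate 1 (0.233) or 2 (0.247). CYFIP2 gained a call in 4, with the GC and length correction (0.0239), with that correction and the replicate block (0.0318), and without sh-SAPCD2 replicate 1 (0.0393) or 2 (0.0263). NCKAP1 gained one without sh-SAPCD2 replicate 1, at a log2 fold change of -0.14, and stood at 0.07 without replicate 2. With single libraries left out, 2 to 5 members were called lower, 7 to 45 pathway genes higher (26 with all libraries) and 7 to 39 lower (19 with all libraries). With the replicate block 3 members were called lower and 0 higher, and 23 pathway genes were called higher and 19 lower. Same-numbered libraries deviated from their group means with a correlation of -0.0188 across 18779 genes. With 2 libraries per group this value cannot decide whether they share a batch or culture, and that was not tested.

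Over all genes, 2326 were called higher and 2339 lower. With the replicate block alone the counts were 2860 and 2701, and without a filter 1081 and 1180. With the GC and length correction they were 3830 and 3665 (3818 and 3584 with the replicate block added). They were 1201 and 1146 without sh-Scb replicate 1, 1176 and 1152 without sh-Scb replicate 2, 4396 and 4014 without sh-SAPCD2 replicate 1, and 3532 and 3496 without sh-SAPCD2 replicate 2. These fits with a library left out tested 19716, 19860, 19848 and 19751 genes in that order, against 18779 with all libraries. The lone library left in a group is then assumed to vary like the other group. The counts of members and pathway genes called in these fits moved with the calls over all genes, so nothing is read from them. The cause of these shifts was not tested. Depth did not limit the members, all of which held at least 862 counts in every library, but it limits NCKAP1L and ABI3.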

Other observations

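The protein-coding genes next to the members were read after their values were seen. CDC40, which starts 137 bases from WASF1 on the opposite strand, had a log2 fold change of -0.13 (SE 0.146) and was not called, while FIG4 on the far side fell by 0.89. Beside WASF2, GPR3 rose by 1.02 and AHDC1 was at 0.27, not called. FANCD2, a DNA repair gene 13743 bases from BRK1, fell by 1.89 (SE 0.119), and VHL on the other side was at 0.02 and not called.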
